A study of Homo sapiens with 18 samples.

Results

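Catalase, the superoxide dismutases and the glutathione peroxidases are the enzymes that remove superoxide and peroxides, and their mRNA was followed here as 10 genes, CAT, SOD1, SOD2, SOD3, GPX1, GPX2, GPX3, GPX4, GPX7 and GPX8, taken by symbol from the 23411 symbols of the count tables. The cells were ARPE-19, a human line of retinal pigment epithelium that arose spontaneously in culture. Sequencing covered 18 samples of their mRNA in 6 groups, with 3 samples per group. Control cells had been transduced with the Cas9 lentivirus lacking a guide RNA, and NRF2 ΔC cells with the same vector carrying a guide to exon 5 of NFE2L2, the gene for the transcription factor NRF2. NRF2 ΔC is 1 selected clone, whose edited alleles carry stop codons at positions 503 and 505, so a difference made by the edit and a difference between clones cannot be told apart. Each line was left untreated (water), given 0.2 mM H2O2 or given 1 mM NACET, the ethyl ester of N-acetylcysteine, which enters cells and raises their thiols. The labels state 22 h of culture in 1 % serum and 2 h of treatment, whereas the design text of the series states 40 h in 10 % serum and 8 h of treatment, so the treatment time is uncertain. The labels do not say whether the replicates were separate cultures, and p-values measure the spread between these samples only.

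Superoxide, which leaks from mitochondria and is made by NADPH oxidases, is turned into hydrogen peroxide and oxygen by the superoxide dismutases, SOD1 in the cytosol, SOD2 in the mitochondrial matrix and SOD3 outside the cell. Hydrogen peroxide is then removed by catalase in peroxisomes and by the glutathione peroxidases, which use glutathione as the reductant, GPX1 in the cytosol and mitochondria, GPX2 mainly in the gut epithelium, GPX3 as a secreted enzyme and GPX4 on lipid hydroperoxides in membranes. GPX7 and GPX8 are enzymes of the endoplasmic reticulum. The retinal pigment epithelium works under strong light and high oxygen and digests the lipid-rich outer segments of photoreceptors, which is why these enzymes are often studied there, and NRF2 is known to switch on many genes of glutathione and thioredoxin metabolism.

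The glutathione peroxidases differ at the codon of their catalytic residue, and the stretch around it is shown because GPX1, GPX2, GPX3 and GPX4 depend on the insertion of selenocysteine at a TGA codon, which elsewhere ends translation, whereas GPX7 and GPX8 have an ordinary cysteine codon there. The lines give 27 bases of the coding strand 5′ to 3′, from the MANE Select transcripts of GENCODE v44 on GRCh37 (hg19), with that codon in capitals.
GPX1: aatgtggcgtccctcTGAggcaccacg
GPX2: aatgtggcttcgctcTGAggcacaacc
GPX3: aacgtggccagctacTGAggcctgacg
GPX4: aacgtggcctcccagTGAggcaagacc
GPX7: aatgtggccagcgagTGCggcttcaca
GPX8: aacgtggccagtgacTGCcaactcaca
The codon was number 49 of GPX1, 40 of GPX2, 73 of GPX3, 73 of GPX4, 57 of GPX7 and 79 of GPX8, counted from the start codon, and each of the 4 selenocysteine genes held exactly 1 in-frame TGA before its end. Outside the codon, GPX1 and GPX2 shared 20 of 24 bases, the most of any pair, and GPX2 and GPX8 shared 10 of 24, the fewest.

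Each sample had between 16673306 and 25951154 counted reads (median 21447434). NFE2L2 was at 101.7 to 149.0 CPM (read counts scaled by library size after TMM normalization) in the 18 samples and was not called between the lines in any condition. Its mRNA level does not check the edit. NQO1, a classical NRF2 target, was at 168 to 1215 CPM in the control samples and 11.4 to 22.6 CPM in the NRF2 ΔC samples, so the labels of the lines were borne out in all 18. Of the retinal pigment epithelium markers, RPE65 and TTR had no count in 14 and 15 of 18 samples, RLBP1 and DCT did not exceed 0.393 and 0.208 CPM, while MITF (64.8 to 185 CPM) and OTX2 (107 to 181 CPM) were present, as were the keratins KRT8 and KRT18. Of the other pigment epithelium markers, TYR had no count in 5 samples. The highest levels of BEST1, PMEL, TYRP1, SERPINF1, LRAT and RDH5 were 3.53, 2.96, 13.2, 1.78, 6.96 and 15.3 CPM. The leukocyte markers PTPRC and CD14 had no count in 16 and 8 samples, while CD68 was at 77.5 to 147 CPM. The endothelial PECAM1 and CDH5 had none in 14 and 12 samples, while VWF was at 0.164 to 1.5 CPM.

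Of the 10 genes, 8 were counted well enough to be tested. Per kilobase of transcript, which allows levels of different genes to be compared, GPX4 was highest in untreated control cells (413 ± 37 CPM per kb, SD, n = 3), followed by SOD1 (326 ± 38.6) and GPX1 (271 ± 20.7), whose samples overlapped. In GENCODE v44, 63.6 % of the GPX1 exon bases also belong to another gene model, so its value could be too low. In treated control cells GPX4 overlapped SOD1 too, at 367 ± 72.6 against 351 ± 63 CPM per kb with NACET. GPX3 (58.3 ± 22.3 CPM per kb) and CAT (48.6 ± 5.31) were the next, and their samples overlapped. GPX8 (16.3 ± 1.73) and SOD3 (13.7 ± 1.63) were lower. SOD2 was left out of this order because its annotated transcript is 14167 bases long, and a cell using a shorter form would have a higher value per kilobase than computed. GPX2 gave 1 to 11 reads per sample, 91 in all, and GPX7 gave 4 reads in all, 0 or 1 per sample, with 14 samples at 0, where a count of 0 allows up to 0.117 to 0.174 CPM. Neither passed the filter on low counts. These limits cover counting error only.

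Few of these genes changed enough to count as differentially expressed, which here means a Benjamini-Hochberg adjusted p-value under 0.05 in edgeR's quasi-likelihood test over all genes and a log2 fold change beyond 0.6 in either direction. With NACET in control cells 0 of the 8 were called, against 2.75 % of all genes tested. An unadjusted p under 0.05 was reached by 3 (all genes, 20.8 %). With H2O2 in control cells 0 were called (all genes, 6.33 %), although 2 passed the adjusted p-value alone (all genes, 13.2 %). There 3 had an unadjusted p under 0.05 (all genes, 30.7 %). In NRF2 ΔC cells 0 were called with NACET (all genes, 1.39 %) and 0 with H2O2 (all genes, 9.81 %). In each, 2 had an unadjusted p under 0.05 (all genes, 18.6 and 29.7 %). DESeq2 called 0 in each of these 4 comparisons, where it called 578, 976, 570 and 1713 of all genes. Between the lines 1 of the 8, SOD3, was called when untreated (all genes, 3.85 %) and was lower in NRF2 ΔC cells (all genes called lower, 3.12 %). With NACET 1 was called (all genes, 4.76 %), again SOD3 and again lower (all genes called lower, 3.86 %). With H2O2 0 were called between the lines (all genes, 5.62 %), and 4 had an unadjusted p under 0.05 (all genes, 23.7 %). DESeq2 called 2 of the 8 there, and 1073 of 15181 genes. NACET against H2O2 gave 0 calls in control cells (all genes, 3.67 %) and 0 in NRF2 ΔC cells (all genes, 8.31 %). DESeq2 called 0 and 1 of the 8, and 651 of 13731 and 1411 of 13798 genes. In each line, 1 of the 8 had an unadjusted p under 0.05 in edgeR (all genes, 23.4 and 26.7 %). The median log2 fold change of the 8 was between -0.16 and 0.04 in the 4 treatment comparisons and between -0.11 and -0.08 in the 3 comparisons of the lines, where the medians of all genes tested lay between -0.01 and 0.01.

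**Figure D1:**
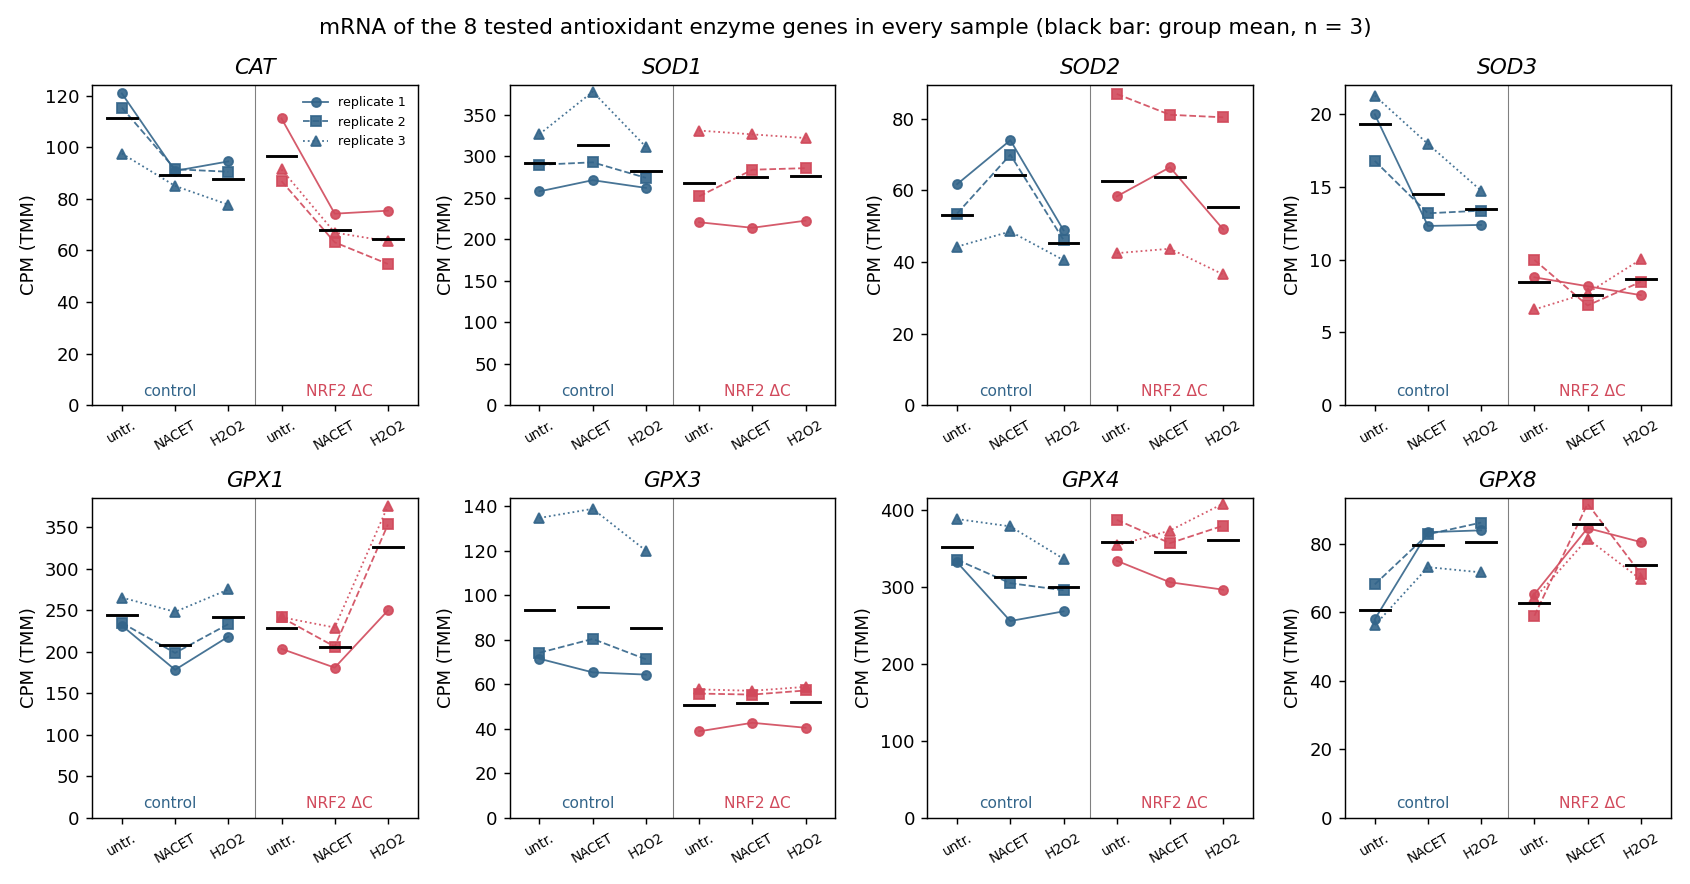
CPM of the 8 tested genes in every sample (vertical axes, each from 0), by group, with the black bar as the mean of 3 samples and lines joining samples of the same replicate number within a line. CAT drops and GPX8 climbs from untreated to treated samples in both lines. SOD3 and GPX3 sit lower in all NRF2 ΔC samples than in all control samples. The mean of GPX1 is highest with H2O2 in NRF2 ΔC cells, where its samples overlap those of other groups.

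Catalase mRNA was lower in treated than in untreated samples of both lines with no overlap between the groups, at folds of 0.797, 0.796, 0.703 and 0.671, but did not pass the adjusted test. CAT (chr11:34460481-34493607, GRCh37, plus strand, 13 exons) was at 120.9, 115.4 and 97.6 CPM in the untreated control samples. With NACET the control samples had 90.9, 91.5 and 85.0 CPM, and with H2O2 94.5, 90.5 and 77.8 CPM. Every treated control sample was thus below the lowest untreated one. NRF2 ΔC samples had CAT at 111.2, 86.9 and 91.5 CPM untreated, 74.3, 63.2 and 66.9 CPM with NACET and 75.4, 54.8 and 63.6 CPM with H2O2, and again no treated sample reached an untreated one.

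The log2 fold change of CAT was -0.33 (SE 0.11, 95 % interval -0.58 to -0.08, edgeR adjusted p = 0.141) for NACET and -0.33 (SE 0.12, interval -0.60 to -0.06, adjusted p = 0.0999) for H2O2 in the control line. For the NRF2 ΔC line it was -0.51 (SE 0.13, interval -0.81 to -0.20, adjusted p = 0.0987) with NACET and -0.58 (SE 0.16, interval -0.95 to -0.21, adjusted p = 0.0548) with H2O2. The NACET and H2O2 comparisons of a line share their untreated samples. Same-numbered samples of a line moved together, and a fit that takes the number as a block gave CAT adjusted p-values of 1.62e-06 (NACET) and 5.34e-05 (H2O2) in control cells. The corresponding values were 3.74e-05 and 1.14e-06 for NRF2 ΔC, and all 4 changes stayed below the fold limit. Without replicate 1 of NRF2 ΔC cells with H2O2 the change there was -0.69 (edgeR adjusted p = 0.0157) and CAT was called. That block put 40.7, 48.7, 34.0 and 46.5 % of all genes under an adjusted p of 0.05 in the same comparisons. Taken number by number, CAT was lower in the treated sample in 12 of 12 pairs, at 0.752 to 0.871 (NACET) and 0.782 to 0.797 (H2O2) of the untreated CPM for the control line. For NRF2 ΔC the ratios were 0.668 to 0.732 (NACET) and 0.630 to 0.695 (H2O2). Whether the lines differed in this was tested as an interaction, which gave 0.18 (SE 0.17, edgeR adjusted p = 1) for NACET and 0.23 (SE 0.20, edgeR adjusted p = 0.923) for H2O2.

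CAT also had its lowest levels in treated NRF2 ΔC cells. Ordered by mean, the groups ran from untreated control cells (111 ± 12.2 CPM) through untreated NRF2 ΔC cells (96.5 ± 12.9) and control cells with NACET (89.1 ± 3.57) and H2O2 (87.6 ± 8.76), neighbours whose samples overlapped, to NRF2 ΔC cells with NACET (68.1 ± 5.64) and H2O2 (64.6 ± 10.4). The samples of these last groups lay below all control samples. NRF2 ΔC against control cells gave a log2 fold change of -0.21 (edgeR adjusted p = 0.606) untreated, -0.39 (adjusted p = 0.0817) with NACET and -0.44 (adjusted p = 0.117) with H2O2.

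**Figure D2:**
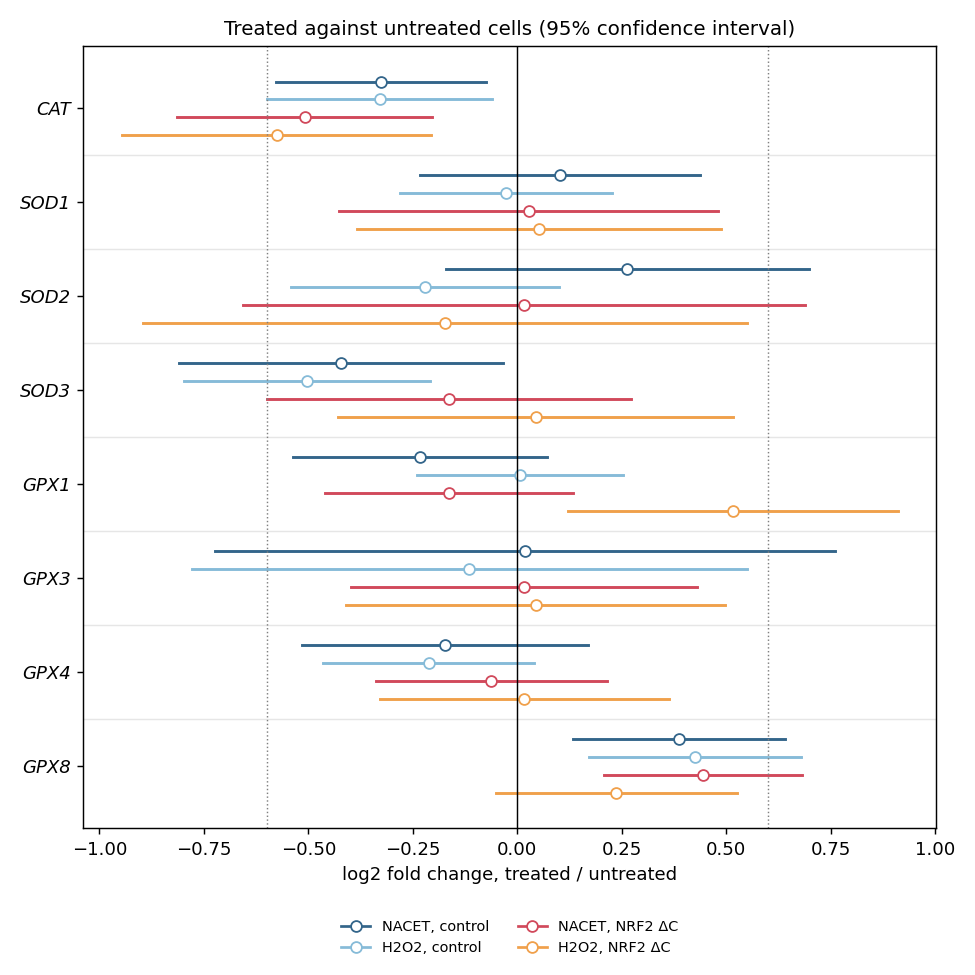
log2 fold change of treated over untreated cells (horizontal axis) for the 8 tested genes, as points with 95 % confidence intervals, in the 4 treatment comparisons; dotted lines mark the fold limit of 0.6 in size and open points were not called. The intervals of CAT lie below 0 in all 4 comparisons, and those of GPX8 above 0 in all but H2O2 in NRF2 ΔC cells.

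Among the superoxide dismutases, SOD3, the copper- and zinc-containing enzyme that is secreted and binds to the matrix around cells, was the one that differed between the lines. SOD3 (chr4:24797195-24802464, plus strand, 2 exons) was at 20.0, 16.8 and 21.3 CPM in untreated control samples and at 8.78, 9.98 and 6.57 CPM in untreated NRF2 ΔC samples. The log2 fold change was -1.19 (SE 0.18, interval -1.61 to -0.78, edgeR adjusted p = 0.00778), a fold of 0.437. With NACET the control samples had 12.3, 13.2 and 17.9 CPM and the NRF2 ΔC samples 8.17, 6.85 and 7.71 CPM, a log2 fold change of -0.94 (SE 0.18, adjusted p = 0.0204). That call was lost without replicate 2 of control cells with NACET (adjusted p = 0.0613) and without replicate 2 (0.115) or replicate 3 (0.0696) of NRF2 ΔC cells with NACET. With H2O2 the values were 12.4, 13.4 and 14.7 CPM against 7.56, 8.47 and 10.0 CPM, a log2 fold change of -0.64 (SE 0.16, adjusted p = 0.0537) that just missed the limit, and DESeq2 gave an adjusted p of 0.0136. All 9 NRF2 ΔC samples lay below all 9 control samples. In bulk RNA, fewer cells holding an mRNA and less of it in each cell cannot be told apart.

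SOD3 was also lower in treated control cells. With H2O2 it was lower in 3 of 3 pairs, to 0.620 to 0.796 of the untreated CPM, with no overlap and a log2 fold change of -0.50 (SE 0.13, edgeR adjusted p = 0.0382) that is smaller than the fold limit. With NACET the samples overlapped, and the log2 fold change was -0.42 (SE 0.17, adjusted p = 0.204, or 3.24e-05 with the replicate block, where 40.7 % of all genes were under 0.05). For NRF2 ΔC, where the level was already low, the log2 fold changes were 0.04 (SE 0.21) with H2O2 and -0.16 (SE 0.19) with NACET, and the sample-by-sample ratios lay on both sides of 1. The test of that difference, the interaction, gave -0.56 for H2O2 (SE 0.24, interval -1.09 to -0.04, edgeR adjusted p = 0.836), so a difference in the response between the lines was not shown.

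SOD3 has a promoter in the RefSeq table, and the 250 bases before its transcription start are shown because this is the gene called between the lines (chr4:24795323-24795572, GRCh38.p14, plus strand).
SOD3: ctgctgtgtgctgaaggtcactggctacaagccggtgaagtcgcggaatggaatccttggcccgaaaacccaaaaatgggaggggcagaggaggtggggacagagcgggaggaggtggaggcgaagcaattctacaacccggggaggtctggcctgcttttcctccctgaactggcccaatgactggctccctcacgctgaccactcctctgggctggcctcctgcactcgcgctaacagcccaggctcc
This window holds no match on either strand to TGACNNNGC, the core of the antioxidant response element, the site that NRF2 binds with small MAF proteins. A match was found in 10.9 % of the 35116 RefSeq promoter windows of this length. Sites outside the 250 bases were not searched and binding of NRF2 was not tested, so the lack of a match does not tell whether NRF2 acts on SOD3. Of the 14 windows of the 9 genes found in the table, 1 matched this core, that of GPX2. A GC box, GGGCGG on either strand, was present in 12 of the 14, with SOD3 and GPX8 as the windows without one, against 42.6 % of all promoters. Several of the 14 windows belong to SOD2 and several to GPX4, and windows of GPX4 overlap. The 14 are thus not independent, and their share was not tested against that of all promoters.

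SOD1 and SOD2 were not called in any comparison. SOD1 (chr21:33032006-33041244, plus strand, 5 exons), the abundant cytosolic enzyme, was at 257.7, 289.8 and 326.7 CPM in untreated control samples and between 213.8 and 377.8 CPM in all 18. Its log2 fold changes lay between -0.20 and 0.14 in the 9 comparisons of 2 groups, with 95 % intervals that reached from -0.61 to 0.49 at the widest. The sample numbered 3 had the highest SOD1 level, and that numbered 1 the lowest, in all 6 groups.

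SOD2 (chr6:160090101-160114273, minus strand), the manganese enzyme of mitochondria and a well-known NF-κB target, was at 61.7, 53.5 and 44.3 CPM in untreated control samples, 74.0, 69.9 and 48.5 CPM with NACET and 48.8, 46.1 and 40.5 CPM with H2O2. Within each replicate number the NACET sample was above the untreated one, at ratios of 1.10 to 1.31, and the H2O2 sample below it, at 0.791 to 0.915. As groups they overlapped the untreated samples. The log2 fold changes were 0.26 (SE 0.19, interval -0.17 to 0.70, edgeR adjusted p = 0.481) with NACET and -0.22 (SE 0.14, interval -0.54 to 0.10, adjusted p = 0.322) with H2O2. The replicate block gave adjusted p-values of 0.000671 and 0.0114 (all genes under 0.05, 40.7 and 48.7 %). In the same control cells, NACET against H2O2 gave 0.50 (SE 0.17, interval 0.11 to 0.88, edgeR adjusted p = 0.122), a value that passed both limits when replicate 3 with NACET was left out (0.66, adjusted p = 0.0149), and the replicate block gave 0.48 (adjusted p = 0.000192; all genes under 0.05 with the block, 41.5 %). SOD2 was widely spread in NRF2 ΔC cells, at 58.3, 86.9 and 42.4 CPM untreated, 66.4, 81.1 and 43.7 CPM with NACET and 49.1, 80.4 and 36.5 CPM with H2O2. The sample numbered 3 was lowest in all 6 groups. NACET against H2O2 in NRF2 ΔC cells gave 0.21 (SE 0.32, edgeR adjusted p = 0.714).

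**Figure D3:**
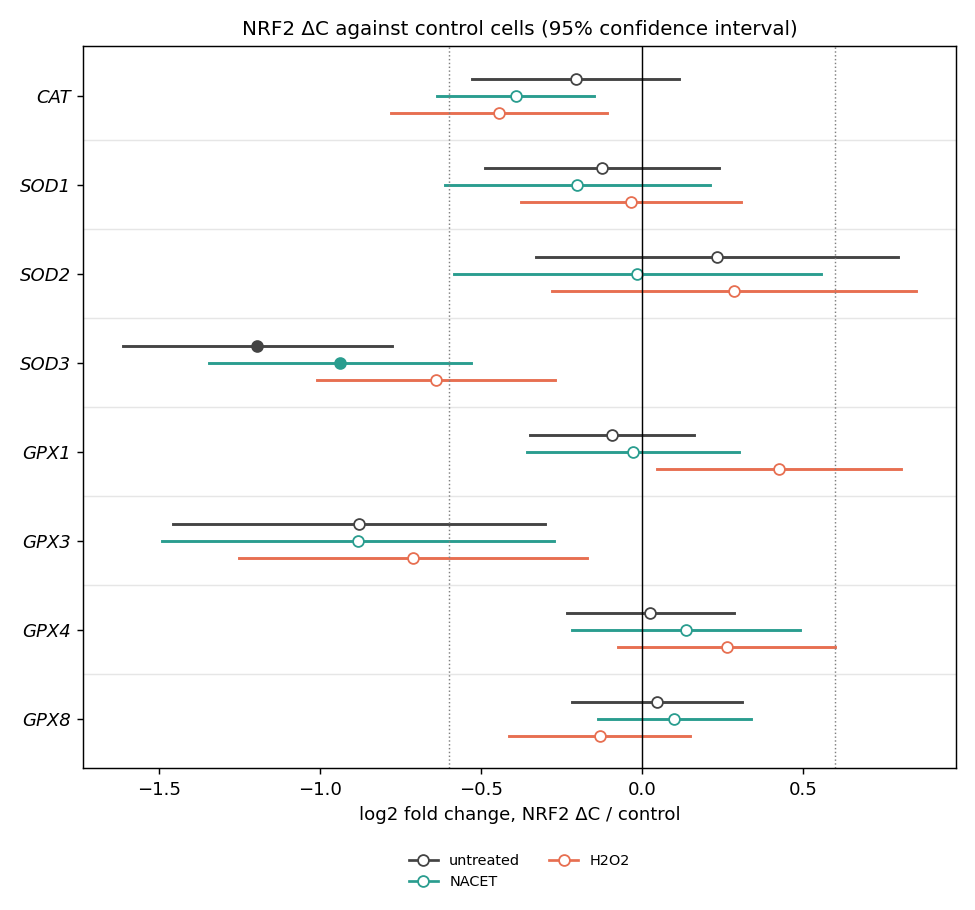
log2 fold change of NRF2 ΔC over control cells (horizontal axis) for the 8 tested genes, as points with 95 % confidence intervals, untreated, with NACET and with H2O2; filled points were called and dotted lines mark the fold limit of 0.6 in size. SOD3 and GPX3 have intervals below 0 in all 3 comparisons, and SOD3 is called in the untreated and NACET comparisons.

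Of the selenocysteine peroxidases, GPX3 had lower values in NRF2 ΔC than in control cells in all 3 conditions, without a call. GPX3 (chr5:150400152-150408549, plus strand, 5 exons), the secreted peroxidase best known from blood plasma, was at 71.5, 74.2 and 134.7 CPM in untreated control samples, 65.4, 80.4 and 138.8 CPM with NACET and 64.4, 71.2 and 120.0 CPM with H2O2. In NRF2 ΔC samples it was at 38.9, 55.8 and 57.7 CPM untreated, 42.7, 55.4 and 57.1 CPM with NACET and 40.5, 57.2 and 58.9 CPM with H2O2. All 9 NRF2 ΔC samples lay below all 9 control samples, as for SOD3. The log2 fold changes were -0.88 (SE 0.25, interval -1.46 to -0.30, edgeR adjusted p = 0.125), -0.88 (SE 0.26, adjusted p = 0.113) with NACET and -0.71 (SE 0.24, adjusted p = 0.119) with H2O2, none of them called. Each value rested in part on replicate 3 of the control group, without which it was -0.52 (adjusted p = 0.232) untreated, -0.49 (adjusted p = 0.166) with NACET and -0.41 (adjusted p = 0.232) with H2O2, inside the fold limit. With all samples DESeq2 called GPX3 lower in all 3 (adjusted p = 0.0177, 0.0201 and 0.0474). The sample numbered 3 was the highest in all 6 groups and well above the others in the control groups. Within a line GPX3 moved little with treatment, with log2 fold changes between -0.11 and 0.04. No overlap between the lines was found for 2 of the 8 genes untreated (SOD3 and GPX3), each lower in NRF2 ΔC cells (all genes lower without overlap, 11.2 %). It was found for 3 with NACET (all genes, 13.3 %) and 3 with H2O2 (all genes, 13.6 %), namely CAT, SOD3 and GPX3, again lower.

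GPX1, the main cytosolic glutathione peroxidase, had its highest mean level with H2O2 in NRF2 ΔC cells. GPX1 (chr3:49394609-49395786, minus strand, 2 exons) was at 231.7, 234.9 and 265.4 CPM untreated and 218.3, 233.4 and 275.1 CPM with H2O2 in control cells, a log2 fold change of 0.01 (SE 0.11). NRF2 ΔC samples had GPX1 at 203.6, 241.4 and 241.7 CPM untreated and 249.9, 353.4 and 375.8 CPM with H2O2, a log2 fold change of 0.52 (SE 0.17, interval 0.12 to 0.91, edgeR adjusted p = 0.0882, or 1.86e-05 with the replicate block, where 46.5 % of all genes were under 0.05). Without replicate 1 of NRF2 ΔC cells with H2O2 the value was 0.68 (adjusted p = 0.0096) and GPX1 was called. NRF2 ΔC against control cells, both with H2O2, gave 0.43 (SE 0.17, edgeR adjusted p = 0.17, DESeq2 adjusted p = 0.143), and the samples overlapped. With NACET NRF2 ΔC samples had 181.0, 206.3 and 229.3 CPM, and NACET against H2O2 in these cells gave -0.66 (SE 0.17, interval -1.06 to -0.26, adjusted p = 0.0514), with no overlap. This difference was called by DESeq2 (adjusted p = 0.00727) and with the replicate block (-0.64, adjusted p = 1.06e-07; all genes called with the block, 15.5 %), and also without replicate 1 of the H2O2 samples (-0.82, adjusted p = 0.011). GPX8 was the other of the 2 genes without overlap there (all genes, 31.8 %), and 0 of the 8 were without overlap between NACET and H2O2 in control cells (all genes, 28.8 %).

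The response of GPX1 to H2O2 was compared between the lines as an interaction. The interaction was -0.53 (SE 0.21, interval -0.99 to -0.07, edgeR adjusted p = 0.777), where 0.0214 % of all genes were called and 0 of the 8. DESeq2 called 0 of the 8 too, and 2 had an unadjusted p under 0.05 in edgeR (all genes, 5.76 %). With a block for the replicate number within each cell line, chosen after the data had been seen, GPX1 was called (-0.51, adjusted p = 0.00689), as were 6.91 % of all genes. For NACET 0 of the 8 were called in the interaction (all genes, 0.0643 %), and 0 by DESeq2. There 0 had an unadjusted p under 0.05 in edgeR (all genes, 1.63 %). In GENCODE v44, 572 of the 899 exon bases of GPX1 (63.6 %) also belong to another protein-coding gene model of the same strand (ENSG00000290318), and whether the annotation used for counting held it is not given in the sources used here, so reads of GPX1 could in part have been set aside as ambiguous. GENCODE v44 also lists pseudogenes named after some of these genes, and reads mapped to several places were not counted.

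GPX4, which reduces lipid hydroperoxides and is the enzyme that restrains ferroptosis, was not called in any comparison. GPX4 (chr19:1103993-1106778, plus strand, 7 exons) was at 331.6, 334.8 and 387.7 CPM in untreated control samples and between 255.4 and 407.8 CPM overall. In control cells its log2 fold change was -0.17 (SE 0.15) with NACET, between -0.33 and -0.05 when each sample was left out (-0.33 without replicate 3 with NACET, -0.05 without replicate 1 with NACET and -0.10 without untreated replicate 3), and -0.21 (SE 0.11) with H2O2. By replicate number GPX4 was lower in the treated control sample in 6 of 6 pairs, which share their untreated samples, at 0.770 to 0.976 of untreated with NACET and 0.808 to 0.882 with H2O2. The replicate block gave adjusted p-values of 0.007 and 0.00125 (all genes under 0.05, 40.7 and 48.7 %), both changes being below the fold limit. For NRF2 ΔC the log2 fold changes were -0.06 (SE 0.12) and 0.02 (SE 0.15). GPX1 and GPX4 had their lowest level in the sample numbered 1 in all 6 groups, as SOD1 and GPX3 did. Over the 6 groups, the sample numbered 3 lay at a median of 1.18 to 1.49 times the mean of the other samples of its group for SOD1, GPX1, GPX3 and GPX4.

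GPX2 (chr14:65405876-65409463, minus strand, 2 exons) is a known NRF2 target, and its promoter (chr14:64942746-64942995, GRCh38.p14, minus strand) is printed because it holds the one match to the response element core, in capitals, here in reverse complement 122 bases before the start.
GPX2: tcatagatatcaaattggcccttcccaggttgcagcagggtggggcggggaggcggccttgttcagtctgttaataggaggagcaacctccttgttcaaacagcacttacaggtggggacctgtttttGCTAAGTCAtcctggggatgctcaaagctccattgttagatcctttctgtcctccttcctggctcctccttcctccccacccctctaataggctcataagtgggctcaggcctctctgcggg
At the depth of these libraries the mRNA stayed near the limit of counting. GPX2 was at 0.396, 0.0976 and 0.138 CPM in untreated control samples and at 0.303, 0.323 and 0.460 CPM with NACET. In untreated NRF2 ΔC samples it was at 0.342, 0.0391 and 0.139 CPM. When the filter on low counts was dropped, the log2 fold change with NACET in control cells was 0.75 (SE 0.60, edgeR adjusted p = 0.591), and no comparison came closer to the limit than an adjusted p of 0.591. A change of GPX2 was thus not shown at this depth, and the size of change that could have been detected was not computed.

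The cysteine peroxidase GPX8 (chr5:54455999-54463125, plus strand, 3 exons), a membrane protein of the endoplasmic reticulum, was higher in treated than in untreated samples. It was at 57.97, 68.2 and 56.2 CPM in untreated control samples, 83.4, 82.8 and 73.2 CPM with NACET and 84.0, 86.2 and 71.7 CPM with H2O2. The NRF2 ΔC values were 65.3, 59.0 and 64.1 CPM untreated, 84.6, 91.7 and 81.5 CPM with NACET and 80.5, 71.2 and 69.6 CPM with H2O2. In each line every treated sample exceeded every untreated one. The log2 fold changes were 0.39 (SE 0.11, interval 0.13 to 0.64, edgeR adjusted p = 0.0974) with NACET and 0.42 (SE 0.11, interval 0.17 to 0.68, adjusted p = 0.0408) with H2O2 in control cells, the latter past the adjusted limit but below the fold limit. For NRF2 ΔC they were 0.44 (SE 0.10, interval 0.21 to 0.68, adjusted p = 0.0761) and 0.24 (SE 0.13, interval -0.05 to 0.53, adjusted p = 0.247). DESeq2 gave adjusted p-values of 0.0404 (NACET) and 0.0133 (H2O2) in control cells and 0.00565 for NACET in NRF2 ΔC cells, with changes below the fold limit. With the replicate block the 4 adjusted p-values of edgeR were 3.52e-08, 1.86e-05, 0.000279 and 0.0546 (all genes under 0.05, 40.7, 48.7, 34 and 46.5 %). By replicate number GPX8 was higher in the treated sample in 12 of 12 pairs, at 1.09 to 1.55 times the untreated value. The NACET and H2O2 pairs of a line share their untreated samples and are not independent. The lines did not differ in this beyond error, with interactions of -0.06 (SE 0.14, interval -0.37 to 0.25) for NACET and 0.17 (SE 0.16, interval -0.18 to 0.52) for H2O2. CAT and GPX8 were the 2 of 8 genes without overlap between NACET and untreated samples in control cells (all genes, 26.3 %) and in NRF2 ΔC cells (all genes, 24.9 %). With H2O2 it was 3 of 8 in each line, with SOD3 in control cells (all genes, 34.8 %) and GPX1 in NRF2 ΔC cells (all genes, 33.3 %) as the third. GPX7 (chr1:53068043-53074723, plus strand, 3 exons), its soluble relative, was near 0 in every sample, at 1 read in 4 of them.

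**Figure D4:**
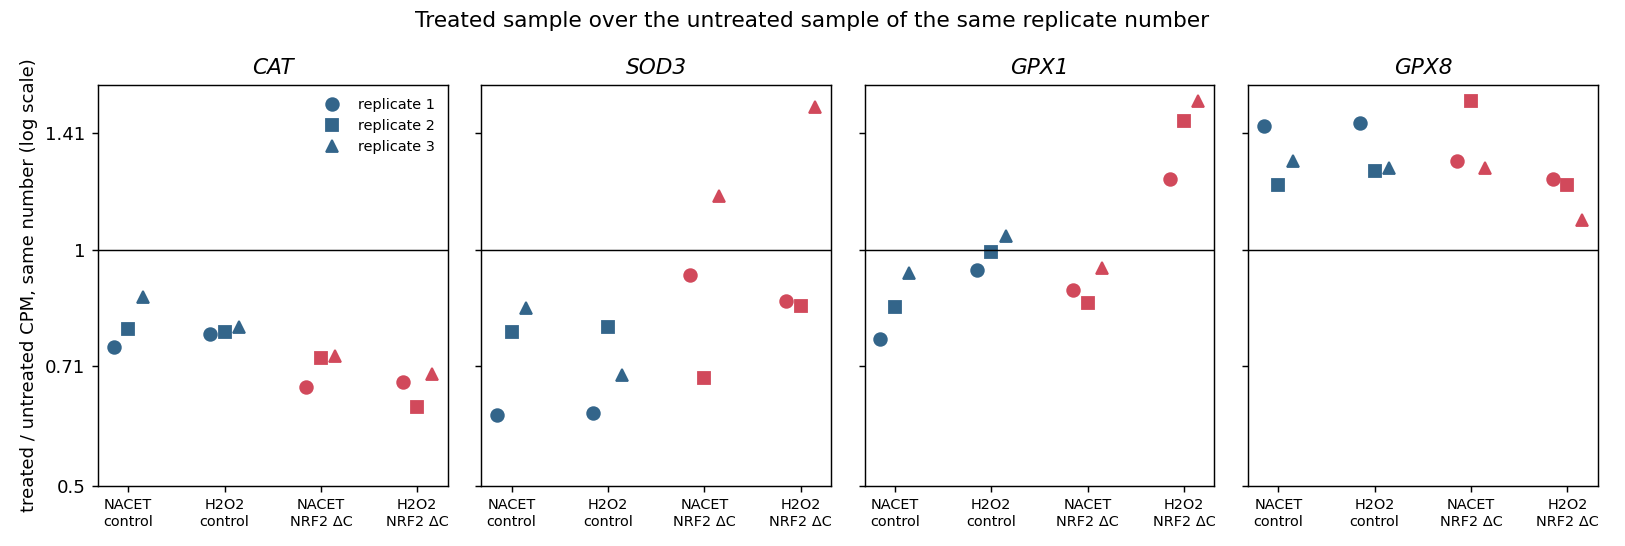
CPM of each treated sample divided by that of the untreated sample with the same replicate number (log axis), for CAT, SOD3, GPX1 and GPX8 in control (blue) and NRF2 ΔC (red) cells. Each untreated sample serves both its NACET and its H2O2 ratio, so the ratios are not independent. All 12 ratios of CAT lie below 1 and all 12 of GPX8 above 1, those of GPX1 lie above 1 in NRF2 ΔC cells with H2O2, and those of SOD3 lie below 1 in 6 of 6 pairs of control cells and in 4 of 6 of NRF2 ΔC cells.

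The peroxiredoxins, the remaining glutathione peroxidases and the genes that keep thioredoxin, glutathione and peroxiredoxins reduced were read beside these genes. Of 14 such genes 12 were tested, and 4 rose with NACET in control cells, SRXN1, the sulfiredoxin that repairs peroxiredoxins (98.5 ± 13.6 to 316 ± 35.6 CPM, log2 fold change 1.68, SE 0.13), TXNRD1, thioredoxin reductase (1.61, SE 0.12), GSR, glutathione reductase (1.07, SE 0.11), and TXN, thioredoxin (0.84, SE 0.18), at edgeR adjusted p-values of 0.00252, 0.00195, 0.00555 and 0.0475. No peroxiredoxin was called with NACET in control cells. With H2O2 3 of the 12 rose in control cells, the same names without TXN, at log2 fold changes of 1.16, 1.05 and 0.75. NRF2 ΔC cells had 0 of the 12 called with NACET, and 1, SRXN1, with H2O2 (0.60, SE 0.16, adjusted p = 0.0425). With NACET 4 of the 12 were lower in NRF2 ΔC than in control cells, TXNRD1 (-2.14), SRXN1 (-1.18), GSR (-0.99) and PRDX1, a cytosolic peroxiredoxin (-0.72), and untreated 1, TXNRD1 (-0.75). With H2O2 2 were lower, TXNRD1 (-1.69) and GSR (-0.81), and 1 higher, PRDX4, a peroxiredoxin of the endoplasmic reticulum (0.66). The median log2 fold change of the 12 with NACET in control cells was 0.07, beside -0.01 over all genes. TXNRD1 was also the one of the 12 whose NACET response differed between the lines by the interaction test (1.39, SE 0.14, edgeR adjusted p = 0.00377), where 0.0643 % of all genes were called. With the replicate block 4 of the 12 were called there (all genes, 0.271 %), with SRXN1 (1.16, adjusted p = 4.8e-05), GSR (0.84, adjusted p = 0.000571) and TXN (0.63, adjusted p = 0.0118) in addition. That block takes the replicate numbers as shared by the lines. The samples numbered 2 did not move together between the lines, so the added calls are not taken as support.

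Selenoproteins depend on the machinery that makes and inserts selenocysteine, and 10 of its 10 genes were tested. With H2O2 1 rose in control cells, SARS, the seryl-tRNA synthetase that also charges the selenocysteine tRNA (169 ± 12.6 to 377 ± 53.3 CPM, log2 fold change 1.17, SE 0.12), and 2 in NRF2 ΔC cells, SARS (1.77, SE 0.18, edgeR adjusted p = 0.00168) and SEPHS2, which makes selenophosphate (55.2 ± 0.107 to 99.8 ± 12.7 CPM, 0.86, SE 0.14, adjusted p = 0.0078). With NACET 0 of the 10 were called in either line, and 0 between the lines in any condition. Of 16 other selenoprotein genes found, 13 were tested in control cells, of which DIO2, the deiodinase that activates thyroid hormone, fell with NACET (907 ± 36.7 to 553 ± 48.0 CPM, log2 fold change -0.72, SE 0.11), and EPT1 (SELENOI) rose with H2O2 (0.61, SE 0.12, edgeR adjusted p = 0.0162). Of 12 tested in NRF2 ΔC cells 1 was called with NACET, DIO2 (-1.43, SE 0.16, adjusted p = 0.0135), and 0 with H2O2. SEPP1, selenoprotein P, was at 3.73 ± 1.31 CPM in untreated control cells and 0.109 ± 0.0793 CPM in untreated NRF2 ΔC cells, which is below the limit of 3 counts. SEPP1 was called lower there and with H2O2. At that level it passed the filter on low counts in untreated cells only through the control samples, so that call is not taken as support for a difference. DIO2 was lower in NRF2 ΔC than in control cells with NACET (-0.94, SE 0.16) and with H2O2 (-0.67, SE 0.15). Between the lines 3.85 % of all genes were called untreated, 4.76 % with NACET and 5.62 % with H2O2.

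Of the 6 genes of copper delivery, which load SOD1 and SOD3, and the 13 genes of peroxisomal import, the route of catalase, edgeR called 0 in any comparison. With the replicate block 1 gene of each list was called, between NACET and H2O2 in NRF2 ΔC cells (all genes called with the block, 15.5 %). Of the 22 makers of superoxide or hydrogen peroxide, 12 were tested in untreated cells and 1 differed between the lines, NOX4, an NADPH oxidase that releases hydrogen peroxide (13.7 ± 1.79 CPM in control and 25.7 ± 5.81 CPM in NRF2 ΔC cells, log2 fold change 0.90, SE 0.18, edgeR adjusted p = 0.029). NOX4 was also higher in NRF2 ΔC cells with NACET (1.14, SE 0.21), and in these cells it fell with H2O2 (12.2 ± 2.85 CPM, -1.06, SE 0.23). With H2O2 XDH, the xanthine dehydrogenase that can act as an oxidase, rose in control cells (2.30, SE 0.39) and in NRF2 ΔC cells (1.79, SE 0.37), NOXO1 rose in control cells (0.93, SE 0.21), and MAOA, an amine oxidase of mitochondria, was lower in NRF2 ΔC than in control cells (-0.83, SE 0.18). For these and the next list, the shares of all genes called with H2O2 were 6.33 % in control and 9.81 % in NRF2 ΔC cells. The shares with NACET were 2.75 and 1.39 %. Between the lines 3.85 % were called untreated, 4.76 % with NACET and 5.62 % with H2O2. Of the 15 NF-κB responsive genes, read beside SOD2, 13 were tested in control cells and 4 rose with NACET, IL8 (3.83, SE 0.61), RELB (1.05, SE 0.15), TNFAIP3 (0.85, SE 0.19) and NFKBIE (0.65, SE 0.12), while 1, CCL2, fell with H2O2 (-0.70, SE 0.19). With the replicate block 8 were higher and 1 lower with NACET (all genes called, 7.49 %), and 3 lower with H2O2 (all genes called, 10.2 %). NACET against H2O2 in control cells gave 5 of 12 higher (all genes called, 3.67 %), with IL8 (3.17), BIRC3 (2.04), TNFAIP3 (1.70) and CCL2 (1.42) as the largest, in the comparison where SOD2 had 0.50. Of 11 tested in NRF2 ΔC cells, 1 rose with NACET, NFKB1 (0.63, SE 0.12), and 1 with H2O2, TRAF1 (1.54, SE 0.35). With the block 8 were higher with NACET (all genes called, 8.82 %), and 5 higher and 1 lower with H2O2 (all genes called, 18.7 %). In these cells SOD2 had 0.02 with NACET (SE 0.29, edgeR adjusted p = 0.983, or 0.775 with the block). With H2O2 SOD2 had -0.17 (SE 0.32, edgeR adjusted p = 0.746). Whether SOD2 followed these genes was not tested. Untreated, 2 of 12 were lower in NRF2 ΔC than in control cells, ICAM1 (-5.56, SE 0.64) and TNFAIP2 (-2.67, SE 0.46), and 1, ICAM1, with either treatment.

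Likeness of pattern was described by Pearson's r of log2(CPM + 1) over the 18 libraries, among 12847 genes with a mean of at least 1 CPM. These points share libraries, lines and replicate numbers. RAB11FIP1 and PKP2 were most like CAT (r = 0.970 for both), TOMM6 (0.954) and PSME1 (0.940) most like SOD1, and TMED7 (0.885) and DYNLT3 (0.827) most like SOD2. DRGX (0.953) and HCN2 (0.948) were most like SOD3, RFXANK (0.963) and NFYC (0.951) like GPX1, and ECHDC3 (0.907) and PPP1R7 (0.9) like GPX3. C11orf2 (0.951) and NDUFV1 (0.949) were most like GPX4, and ATP6V0A2 (0.958) and DNAH14 (0.929) like GPX8. Among the 8 genes themselves the highest r was 0.791, between SOD3 and GPX3, which both separated the lines, and the lowest was -0.547, between GPX4 and GPX8.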

How the data were processed

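TruSeq libraries of mRNA from 18 ARPE-19 samples were sequenced, and the labels sort them into 6 groups of 3. The authors mapped single-end reads to hg19 with TopHat 2.1.0, counted reads per gene with HTSeq-count 0.11.2 over exons without regard to strand, and deposited raw, whole-number counts for each symbol, from which genes of ribosomal RNA had been taken out. The gene annotation is not given in the sources used here. The 5 summary lines that name no gene held 25.8 to 27.9 % of the reads of a table and stayed out of library sizes and tests. From 16673306 to 25951154 reads on genes stand behind each sample, and counting error matters for GPX2 and GPX7, while the other values are limited by how far 3 replicates differ.

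Counts were analysed with edgeR 4.0.16 in R 4.3.3 (filterByExpr, TMM, quasi-likelihood test, Benjamini-Hochberg adjustment over all genes tested), each of 9 pairs of groups on its own 6 samples and each of 2 interactions on 12, coded as the change in control cells minus the change in NRF2 ΔC cells. Calls needed an adjusted p under 0.05 with a log2 fold change beyond 0.6 in either direction, and in interactions at the adjusted p alone. The paper used DESeq2; edgeR was taken as the main test here and DESeq2 1.42.0 as an alternative. Intervals are 95 % intervals from the fitted log2 fold change and its standard error. A floor is 3 counts. All 10 genes are described; from each further list at most the 4 called genes with the largest change are named, and the 2 genes most like each tested gene. The genes and lists were chosen with earlier results of these data known. The scripts were tested on simulated counts.

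The labels give replicate numbers without saying what they mark. Within a line, deviations of same-numbered samples from their group means correlated in every pair (r = 0.441 to 0.846 over 13136 genes), so the numbers were taken to pair samples there. The alternatives were DESeq2, RLE scaling, no filter on low counts, a block for the replicate number, 1 joint fit of the 18 samples, no fold limit and leaving out each sample. Gene positions and lengths are from GENCODE v44 on GRCh37, which is hg19, and promoters from RefSeq on GRCh38.p14, where SOD1 was not found.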

Additional observations from a re-analysis of the deposited data

How the results depend on the processing

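The number of genes called of the 8 was unchanged, at 0, under every alternative for NACET in both lines and for the interaction of NACET and cell line. With H2O2 in control cells it went from 0 to 2 without the fold limit (SOD3 and GPX8). With H2O2 in NRF2 ΔC cells it ranged from 0 to 2 when each sample was left out, with CAT (-0.69) and GPX1 (0.68) called without replicate 1 of the H2O2 group. Between the lines it went from 1 to 2 untreated with DESeq2 and with the replicate block (SOD3 and GPX3), and stayed at 1 to 1 with samples left out. With NACET it went from 1 to 2 in the same fits and ranged from 0 to 1 with samples left out. With H2O2 it went from 0 to 2 with DESeq2 and with the block, to 1 without the filter and to 1 in the fit of all 18 samples (SOD3), with 0 to 0 on leaving out samples. NACET against H2O2 gave 0 to 1 with samples left out in both lines (SOD2 in control cells, GPX1 in NRF2 ΔC cells), and in NRF2 ΔC cells 1, GPX1, with DESeq2, RLE, no filter, the fit of all 18 samples and the block. The block within each cell line took the interaction with H2O2 from 0 to 1 (GPX1), with 0 to 0 on leaving out samples. The cause of these changes was not tested.

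Between the lines the replicate numbers were not taken as pairs, since the deviations of the samples numbered 2 did not move together (r = -0.225, -0.216 and -0.0306). There the replicate block gave GPX3 a log2 fold change of -0.84, -0.82 and -0.68 (edgeR adjusted p = 0.00759, 0.0084 and 0.00288) and SOD3 one of -0.64 with H2O2 (adjusted p = 0.00711), all of them past the limits, and moved all genes called from 528 to 843 untreated, 648 to 1018 with NACET and 763 to 1524 with H2O2. Of the within-line calls the block changed that of GPX1 alone, between NACET and H2O2 in NRF2 ΔC cells.

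Over the 88 log2 fold changes of the 8 genes in 11 comparisons, 1024 of 1152 alternative values kept direction and call, 3 lost a call, 22 gained one and 103 changed sign, in 41 of the 88. Of the 31 values that had an unadjusted p under 0.05, or an adjusted p under 0.05 with the block within a line, or a call under an alternative, 1 changed sign, that of SOD2 between NACET and H2O2 in NRF2 ΔC cells (0.21, with -0.026 to 0.57 when each sample was left out). Within the lines the block moved all genes called from 376 to 1026 (NACET) and 867 to 1400 (H2O2) in control cells, from 188 to 1195 and 1329 to 2538 in NRF2 ΔC cells, and from 499 to 1019 and 1121 to 2092 between NACET and H2O2. DESeq2 called 578 in place of 376 and 570 in place of 188, the fit of all 18 samples 641 in place of 188, and without the fold limit 1809 passed in place of 867 and 799 in place of 499. For the interactions, 9 (NACET) and 3 (H2O2) genes were called, 27 and 75 by DESeq2, 38 and 165 with the block, 126 and 967 with the block within each line, 3 with RLE (NACET), and 13 without the filter and 19 in the fit of all 18 samples (H2O2). With samples left out, NACET in NRF2 ΔC cells gave 0 to 462 genes. GPX2 and GPX7 are limited by depth.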
